A study of Mus musculus with 12 samples.

Results

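Mouse chromosome 6 held a larger share of the Okazaki fragment reads in KMT2C/D dCD cells than in control cells, in both pluripotency states. The bins described here are the 1 kb bins of mm10 chromosome 6 outside a domain around Mitf and Foxp1 (chr6:96925341-101520993). They number 145140 of the 2633767 bins of the autosomes and chromosome X, and 145139 of them were used, as 1 had an outlying count. The chromosome was singled out because its dCD over control read share was high, so those read shares are given as a description, without a test. Fork polarity, which is the balance of the strands, took no part in that choice.

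OK-seq was done in naive mouse embryonic stem cells, grown with LIF and 2i, and in formative cells (EpiLC), derived from them by differentiation, in 3 lines and 12 samples. The control lacks KMT2C (KMT2C KO), and KMT2C/D dKO lacks KMT2D as well, through Cre-ER activated by 4-hydroxytamoxifen in cells of a mixed C57BL/6 and 129 background with a conditional KMT2D allele. KMT2C/D dCD carries catalytically dead forms of both enzymes, and the methods give it the same source as cells named KMT2D cCD, which they describe as male R1 cells of a 129 background. By that description the dCD line differs from the control in background as well as in its KMT2 genes, and these cannot be told apart here. Each condition was deposited as 1 table in which 2 replicates are summed, so no error between replicates could be computed here, each comparison is between pooled libraries, and whether both dCD replicates carried a difference could not be seen. The 6 libraries held 3655095 to 13601460 reads, with the naive libraries at 4409068 (control), 3937871 (dKO) and 3655095 (dCD) and the EpiLC libraries at 11407678, 12962445 and 13601460.

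OK-seq sequences Okazaki fragments, the short pieces of the lagging strand made as a replication fork moves. A fork that moves one way leaves its fragments on the Watson strand, and one that moves the other way leaves them on the Crick strand, so the strand balance reports fork direction. The number of fragments from a region depends on how many copies of that region are replicated during the label and on how fragments are recovered there. More copies of a chromosome and more fragments from each copy therefore cannot be told apart in read shares. KMT2C and KMT2D place mono-methylation on histone H3 lysine 4, mostly at enhancers. Mouse chromosome 6 carries the pluripotency gene Nanog, the HoxA cluster of body axis regulators, the immunoglobulin kappa and T cell receptor beta genes, and several of the longest neuronal genes of the genome.

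The sequence of the chromosome is uneven at the scale of single promoters and of large windows. Promoters of a pluripotency, a replication and a neuronal gene are shown for the former, and each stretch is the 250 bases before the transcription start site (TSS), from RefSeq for GRCm38.p6, read 5′ to 3′ on the strand of the gene with each CG in capitals. They lie at chr6:122707239-122707488 on the plus strand (Nanog), chr6:88898781-88899030 on the minus strand (Mcm2) and chr6:77979668-77979917 on the minus strand (Ctnna2). The Nanog stretch holds 3 CG, a number reached by 71.0% of 32851 mouse promoters. The Mcm2 stretch holds 10, reached by 37.8%, and the Ctnna2 stretch 30, reached by 5.94%. The 1 Mb windows around them have another order, with a G+C content of 43.2% at Nanog, 47.7% at Mcm2 and 39.2% at Ctnna2, and it is the G+C content of large windows, not that of promoters, that is set against the ratios below.
Nanog: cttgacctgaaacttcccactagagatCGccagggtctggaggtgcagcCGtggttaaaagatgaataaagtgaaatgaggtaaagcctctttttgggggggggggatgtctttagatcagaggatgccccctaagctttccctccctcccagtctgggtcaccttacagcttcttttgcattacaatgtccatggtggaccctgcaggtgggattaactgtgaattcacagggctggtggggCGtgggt
Mcm2: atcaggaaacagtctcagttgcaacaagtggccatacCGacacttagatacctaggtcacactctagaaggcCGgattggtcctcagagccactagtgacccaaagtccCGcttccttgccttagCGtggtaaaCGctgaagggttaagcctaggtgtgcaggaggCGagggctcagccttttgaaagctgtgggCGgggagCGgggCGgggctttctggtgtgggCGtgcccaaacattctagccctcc
Ctnna2: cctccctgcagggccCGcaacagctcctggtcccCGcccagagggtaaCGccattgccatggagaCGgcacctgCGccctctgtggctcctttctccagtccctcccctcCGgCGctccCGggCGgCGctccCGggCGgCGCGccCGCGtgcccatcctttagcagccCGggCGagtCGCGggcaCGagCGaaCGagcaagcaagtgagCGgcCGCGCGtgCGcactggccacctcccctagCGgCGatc

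The share of all reads that fell on chromosome 6 was 5.65% in the naive control, 5.66% in naive dKO and 6.27% in naive dCD. In EpiLCs it was 5.64% in the control, 5.63% in dKO and 5.98% in dCD. Both dCD libraries stood above the other 4 libraries, which lay within 5.63% and 5.66%. Behind these shares were 247749, 221760 and 228027 reads in the naive libraries and 641636, 727296 and 812011 reads in the EpiLC libraries.

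The naive dCD share was 1.11 times that of the naive control, a gain of 11.02% (95% interval 10.39% to 11.65%), and the EpiLC dCD share was 1.060 times that of the EpiLC control (1.057 to 1.063). Intervals of a share ratio are exact binomial and those of a ratio of 2 such ratios normal on the log scale, and all cover counting error only, as the fragments carried no molecular identifiers and PCR copies of 1 molecule may count as several reads. Chromosome 6 ranked 1 of 20 chromosomes in both states. The other 19 chromosomes lay between 0.921 (chromosome 3) and 1.04 (chromosome 2) in naive cells, with a median of 0.997, and between 0.942 and 1.03 in EpiLCs, with the same chromosomes at the ends. In dKO the chromosome 6 ratio was 1.003 (0.997 to 1.008) in naive cells, rank 13, and 0.998 (0.994 to 1.001) in EpiLCs, rank 16. Set directly against dKO, the dCD share was 1.107 times as high in naive cells (1.101 to 1.114) and 1.063 times in EpiLCs (1.059 to 1.066). The other chromosomes reached at most 1.04 in either of these comparisons.

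**Figure D1:**
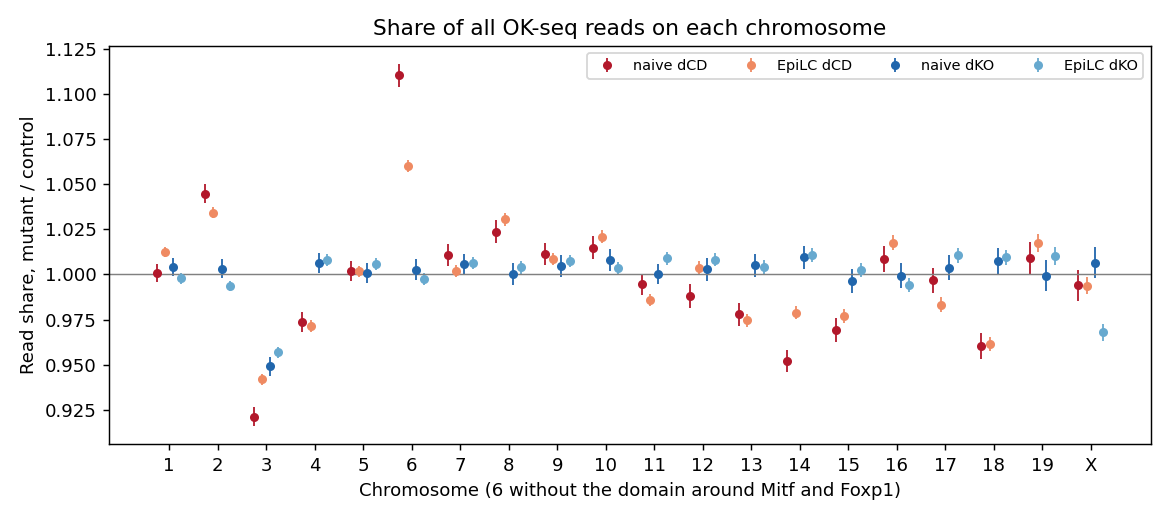
Share of all OK-seq reads on each chromosome in a mutant library, divided by the share in the control library of the same state; bars are 95% counting intervals. Chromosome 6 in dCD (1.11 naive, 1.06 EpiLC) lies above every other chromosome, while in dKO it lies at 1.003 and 0.998.

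The gain was smaller in the formative state. The EpiLC ratio of dCD to control was 0.955 times the naive ratio (0.949 to 0.961), outside the 0.987 to 1.03 of the other 19 chromosomes. The control share in EpiLCs was within 1% of the naive control share (ratio 0.9996, interval 0.995 to 1.004). In dCD the EpiLC share was 0.9544 times the naive share (0.94996 to 0.9588), below the 0.970 to 1.06 of the other chromosomes. In dKO the same step in the ratio to control was 0.995 (0.988 to 1.001).

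The higher reading was spread along the chromosome rather than held in 1 segment. From its start to 50000000 the naive dCD ratio was 1.101 (1.090 to 1.112), from there to 100000000 it was 1.102 (1.091 to 1.113), and on to 149736000 it was 1.127 (1.116 to 1.138). The EpiLC ratios of the same stretches were 1.064 (1.058 to 1.070), 1.049 (1.044 to 1.055) and 1.067 (1.061 to 1.073). The dKO ratios of these stretches lay between 0.986 and 1.02. The excluded domain around Mitf, a melanocyte regulator, and Foxp1, a forkhead factor, read 1.18 (1.15 to 1.21) in naive and 1.086 (1.068 to 1.104) in EpiLC dCD.

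In windows of 5 Mb, 29 of 30 windows were above 1 in naive dCD, where 50.4% of all 530 windows of the genome were, and 27 of 30 in EpiLC dCD, against 52.6%. A ratio above 1.1 was found in 20 windows in naive dCD (4.72% over the genome) and in 7 in EpiLC dCD (2.64%). None of the windows passed 1.1 in dKO, in either state (0% over the genome). The medians were 1.12 in naive dCD, with a range from 0.999 to 1.18, and 1.07 in EpiLC dCD, with a range from 0.978 to 1.18. The rule used these values, so the counts describe the extent of the gain and are no test of it.

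**Figure D2:**
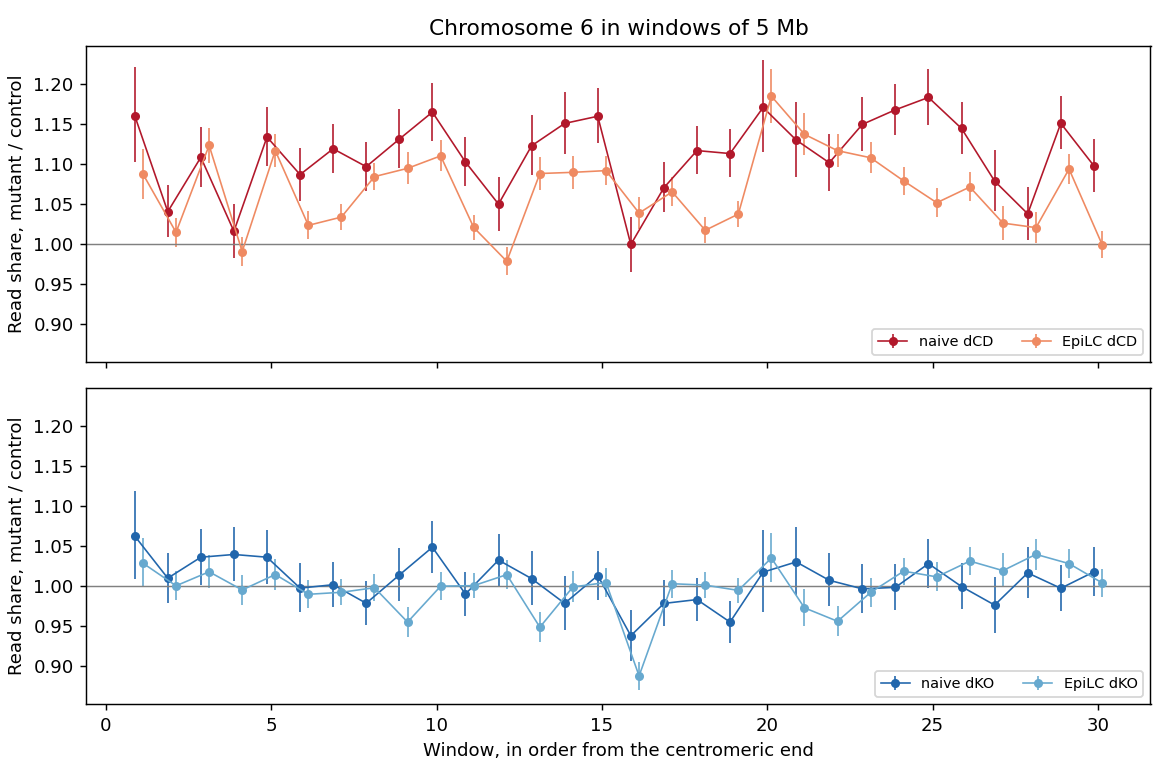
Read share of the 30 windows of 5 Mb of chromosome 6, in order from the centromeric end, divided by the share in the control of the same state, for dCD (top) and dKO (bottom); bars are 95% counting intervals. Naive dCD lies above 1 in 29 windows and EpiLC dCD in 27, and dKO lies on both sides of 1, lowest at 0.887 in window 16 in EpiLCs.

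The highest 5 Mb window by the mean of both states was chr6:95000001-100000000, of which only the part outside the domain was counted. It held 746 reads per 1000000 reads of the library (RPM) in naive control, 758 in naive dKO and 872 in naive dCD, and 715, 740 and 847 in the EpiLC libraries. Its dCD ratios were 1.17 (1.11 to 1.23) in naive cells and 1.18 (1.15 to 1.22) in EpiLCs. Next came chr6:45000001-50000000, with 1873, 1963 and 2181 RPM in the naive libraries and 1967, 1966 and 2183 in the EpiLC libraries, in the order control, dKO and dCD. This window holds Cntnap2, a neuronal adhesion gene, and its ratios were 1.16 and 1.11. In both windows the dCD library was above the control and the dKO library of its state.

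The lowest 5 Mb windows in dCD were close to 1 rather than clearly below it. At chr6:15000001-20000000 the libraries held 1784 RPM (control), 1853 (dKO) and 1811 (dCD) in naive cells and 1806, 1797 and 1788 in EpiLCs. The dCD ratios there were 1.015 (0.982 to 1.049) and 0.990 (0.972 to 1.01). At chr6:75000001-80000000 they were 0.999 (0.965 to 1.03) and 1.04 (1.02 to 1.06), and here dKO was low, at 0.937 in naive cells and 0.887 in EpiLCs. At chr6:55000001-60000000 they were 1.049 (1.016 to 1.083) and 0.978 (0.960 to 0.996).

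At 1 Mb, 143 windows of chromosome 6 and 2372 windows of other chromosomes had at least 500 reads in the control. In naive dCD 128 of the 143 were above 1 (49.7% over the genome) and 89 above 1.1 (8.03%). In EpiLC dCD 117 were above 1 (51.8%) and 51 above 1.1 (10.5%). In dKO 3 windows passed 1.1 in naive cells (3.38%) and 2 in EpiLCs (1.07%). In both dCD libraries together, 113 of the 143 were above 1 (32.8% over the genome). The windows nearest to the 1.1 line on either side of it had ratios of 1.0999 and 1.1005 in naive dCD and of 1.099 and 1.102 in EpiLC dCD.

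The longest run of kept 1 Mb windows above 1 was 46 windows in naive dCD and 32 in EpiLC dCD. Windows were taken in order without regard to gaps, and both runs pass over the excluded domain, so neither is an unbroken stretch. On the other chromosomes the longest such run was 19 (chromosome 2) and 22 (chromosome 16). The spread of the windows was in the middle of the genome. After the counting variance was taken off, the SD of log2 ratios within chromosome 6 was 0.09 in naive dCD, rank 8 of 20 chromosomes, where the others ranged from 0.05 to 0.27. In EpiLC dCD it was 0.10, rank 9, with the others from 0.07 to 0.29.

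**Figure D3:**
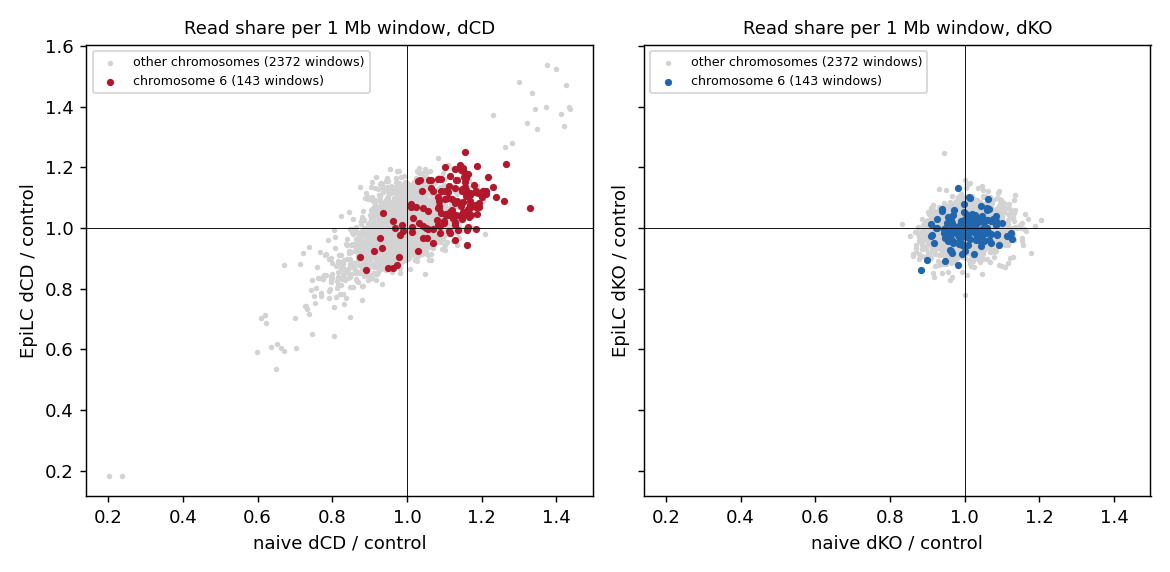
Read share of each 1 Mb window over the control, naive state on the x axis and EpiLC state on the y axis, for dCD (left) and dKO (right), with 143 windows of chromosome 6 in colour and 2372 of other chromosomes in grey. In dCD 113 of the chromosome 6 windows lie above 1 on both axes, and in dKO they lie around 1.

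Across the 143 windows the naive and EpiLC dCD ratios had a Pearson r of 0.576, a description over windows that share libraries, with r between 0.0767 and 0.924 on other chromosomes. In dKO the r was 0.214. The smaller EpiLC gain was widespread but not uniform. The EpiLC ratio was lower than the naive ratio in 25 of 30 windows of 5 Mb, where 52.1% of all windows were, and the interval of this step lay below 1 in 17 (16.6%). At 1 Mb it was lower in 100 of 143 windows (48.5%), with the interval below 1 in 43 (11.1%).

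The highest 1 Mb window in naive dCD was chr6:121000001-122000000, with 394 RPM in the control, 427 in dKO and 524 in dCD. Its naive ratio was 1.33 (1.24 to 1.42), while the EpiLC ratio was 1.07 (1.03 to 1.11) from 389, 404 and 415 RPM. The highest in EpiLC dCD was chr6:46000001-47000000, inside Cntnap2, with 315, 318 and 394 RPM in control, dKO and dCD. Its ratios were 1.252 (1.1996 to 1.306) in EpiLCs and 1.16 (1.07 to 1.25) in naive cells. The window chr6:21000001-22000000 was among the 3 highest in both states, at 1.27 (1.18 to 1.36) and 1.21 (1.16 to 1.26). In naive cells dKO was also above the control there, at 1.125 (1.046 to 1.210), and in EpiLCs dKO was at 0.982.

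Directly beside it lay the longest run of windows that read below the control. Runs of at least 2 neighbouring 1 Mb windows below 1 in both dCD libraries occurred at 4 places. The longest was chr6:17000001-21000000, a run of 4 windows with 12 protein-coding start sites. They include Cav1 and Cav2, which encode caveolins of the plasma membrane, Met, the receptor of hepatocyte growth factor, and Wnt2, a secreted signalling protein. The dCD ratio over the run was 0.919 (0.885 to 0.955) in naive cells and 0.898 (0.879 to 0.918) in EpiLCs, and the dKO ratio was 1.004 (0.968 to 1.041) and 0.989 (0.968 to 1.01). At its lowest 1 Mb window in naive cells, chr6:19000001-20000000, there were 284 RPM in the control, 298 in dKO and 248 in dCD, and 274, 279 and 248 in EpiLCs.

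In steps of 250 kb, the upper edge of this stretch, at 20.75 Mb, was the same in the naive and EpiLC libraries. At the lower edge the first step, chr6:17000001-17250000, was at 0.987 (0.859 to 1.133) in naive dCD and 1.021 (0.944 to 1.105) in EpiLC dCD. From 16 to 17 Mb all 4 steps were above 1 in dCD in both states, with 1.16 (1.08 to 1.25) and 1.18 (1.13 to 1.23) over the Mb. From 17 to 20.75 Mb, bounds set after the values were seen, 15 of 15 steps were below 1 in naive dCD, between 0.789 and 0.999, and 14 of 15 in EpiLC dCD, between 0.786 and 1.02. The ratio of that stretch was 0.910 (0.875 to 0.947) in naive cells and 0.887 (0.867 to 0.907) in EpiLCs. From 20.75 to 23 Mb all 9 steps were above 1 again in both states, with 1.19 (1.14 to 1.25) and 1.19 (1.16 to 1.23) overall. In dKO the stretch from 17 to 20.75 Mb had 7 steps below 1 in naive cells and 8 in EpiLCs, with overall ratios of 1.01 and 0.987. The G+C content of 1 Mb windows was 41.0%, 39.0%, 37.2% and 36.7% from chr6:17000001-18000000 to chr6:20000001-21000000 and 37.9% in the high window beside them.

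The other 3 low runs held 2 windows each, and 1 of them was lower in EpiLC dCD than the run of 4. At chr6:7000001-9000000, which includes Asns, the asparagine synthetase, and Rpa3, a subunit of the single-strand DNA binding complex RPA, the dCD ratios were 0.952 (0.906 to 1.001) and 0.919 (0.893 to 0.946). At chr6:56000001-58000000 they were 0.956 (0.908 to 1.01) and 0.868 (0.843 to 0.893), with dKO at 1.01 and 0.985. This run holds Pde1c, a cyclic nucleotide phosphodiesterase, and many of the Vmn1r pheromone receptor genes among its 34 protein-coding start sites. At chr6:135000001-137000000 they were 0.986 (0.941 to 1.03) and 0.982 (0.955 to 1.01), and dKO was at 1.079 (1.0496 to 1.110) in EpiLCs. In all, 11 of 143 windows of 1 Mb were below 1 in both dCD libraries, where 31.3% of all windows of the genome were.

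The gain was present on both strands. In naive dCD the ratio was 1.111 (1.102 to 1.120) for Watson and 1.109 (1.1001 to 1.118) for Crick reads, and in EpiLC dCD 1.059 (1.054 to 1.064) and 1.061 (1.056 to 1.066). In dKO it lay between 0.996 and 1.003 for either strand and state. Crick reads made up 49.92% to 49.98% of the reads of the chromosome in the 6 libraries. In windows of 5 Mb, both strands were above 1 in 27 of 30 windows in naive dCD (32.3% over the genome) and in 24 in EpiLC dCD (41.7%). The strands differed beyond counting error in 8 windows in naive dCD (23.6% over the genome) and in 9 in EpiLC dCD (25.5%). The Watson ratio over the Crick ratio ranged from 0.896 to 1.22 in naive dCD and from 0.951 to 1.07 in EpiLC dCD over these windows.

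The ratios varied with base composition, in opposite directions in the naive and EpiLC states, on chromosome 6 as elsewhere. All windows of 100 kb of the genome were put into 5 classes of G+C content. In naive dCD the chromosome 6 ratio went from 1.08 (1.06 to 1.09) in the class of lowest G+C to 1.13 (1.12 to 1.15) in the highest. In EpiLC dCD it went from 1.092 (1.083 to 1.1003) in the lowest class to 1.04 (1.03 to 1.04) in the highest. The other chromosomes followed the same trends, with 0.953 in the lowest and 1.02 in the highest class in naive dCD, and with 1.03 and 0.982 in EpiLC dCD. The dKO ratio of chromosome 6 fell with G+C in naive cells, from 1.02 to 0.985, but rose with it in EpiLCs, from 0.972 to 1.02.

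Set against other chromosomes of the same class, chromosome 6 was higher in every class. In naive dCD it was 1.11 to 1.13 times as high over the 5 classes of G+C, and in EpiLC dCD 1.06 to 1.07 times. Over 5 classes of read density, taken from the control of the other state, the naive dCD excess was 1.11 to 1.14 times and the EpiLC excess 1.06 to 1.07 times. Distance to a protein-coding TSS left it at 1.113 (1.101 to 1.124) up to 25 kb, 1.118 (1.106 to 1.130) from 25 to 100 kb and 1.122 (1.112 to 1.133) beyond in naive dCD. In EpiLC dCD it was 1.065, 1.068 and 1.060 in the same order. The intervals near to and far from start sites overlapped in both states.

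**Figure D4:**
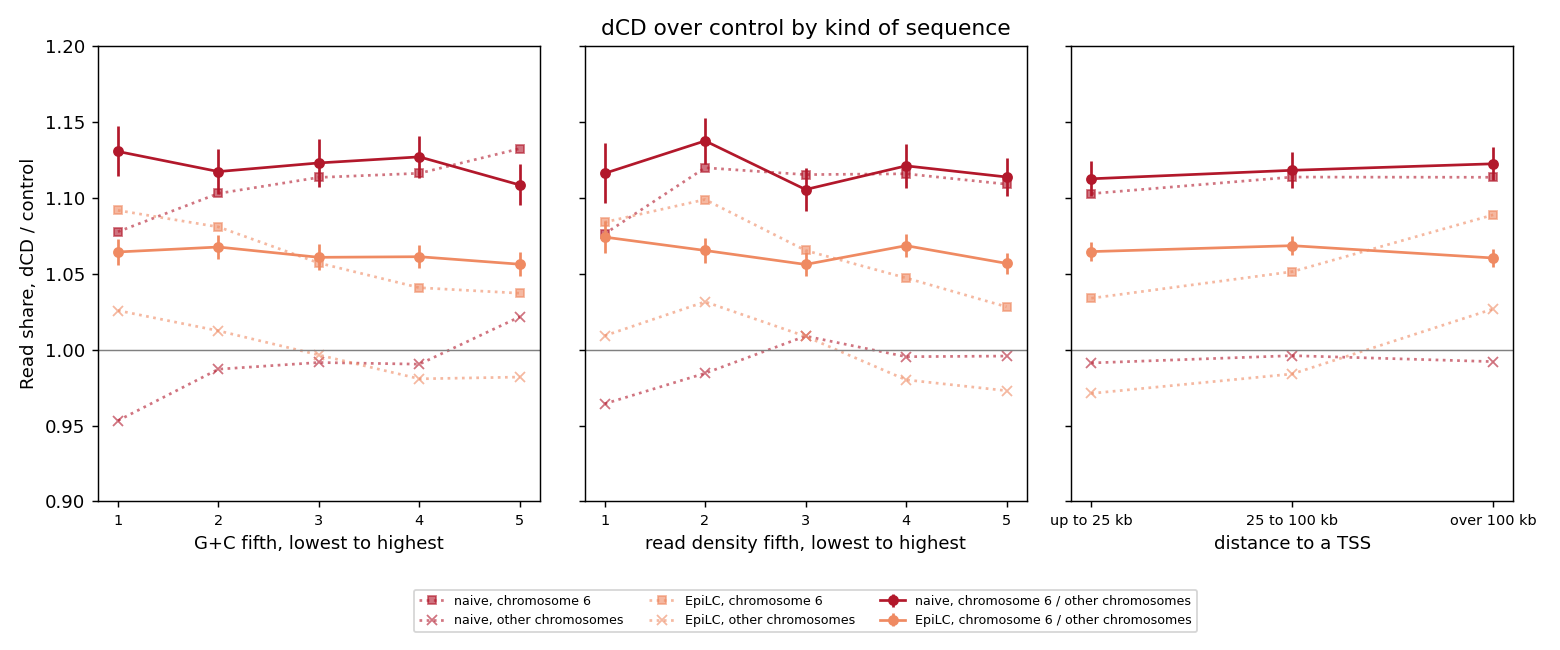
Read share in dCD over control by class of sequence (G+C content, read density in the control of the other state, distance to a TSS) for chromosome 6 (squares), other chromosomes (crosses) and chromosome 6 over other chromosomes (circles, with 95% counting intervals). The circles stay between 1.11 and 1.14 in naive cells and between 1.06 and 1.07 in EpiLCs, while across the G+C classes squares and crosses slope in opposite directions in the naive and EpiLC states.

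Across the 143 windows of 1 Mb, the step from the naive to the EpiLC ratio had an r of -0.492 with G+C content, with r between -0.651 and -0.287 on other chromosomes. Windows of higher G+C thus tended to have a lower EpiLC ratio relative to their naive ratio, here and on other chromosomes. In the class of lowest G+C the EpiLC ratio was not below the naive ratio. It was 1.08 in naive and 1.09 in EpiLC dCD on chromosome 6, and 0.953 and 1.03 on other chromosomes. Taking a G+C trend fitted on other chromosomes off all windows left the naive ratio at 1.11 and the EpiLC ratio at 1.06.

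Fork polarity gave a measure that the choice of the chromosome had not used. Its amplitude is the SD of the Crick percentage over bins of 50 kb after the counting variance is taken off, in percentage points, and is larger where forks run more uniformly in 1 direction. Over 2811 bins of chromosome 6 it was 12.8 in naive control, 13.3 in naive dKO and 16.1 in naive dCD. In EpiLCs it was 9.68, 10.6 and 12.1 in the same order. The dCD library had the highest amplitude and the control the lowest in both states.

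On this measure chromosome 6 did not lead the genome. The amplitude in dCD over control was 1.26 in naive cells, rank 19 of 20, within the 1.25 to 1.34 of the other chromosomes and below their median of 1.31. Only chromosome X, at 1.255, was lower, so chromosome 6 was the lowest autosome. In EpiLCs the chromosome 6 amplitude ratio was 1.25, rank 15, within 1.22 to 1.297 and below the median of 1.27. In dKO it was 1.04 in naive cells (others 1.03 to 1.07) and 1.098 in EpiLCs (others 1.06 to 1.12). The chromosome with the highest read gain thus had one of the lowest gains in amplitude in naive dCD. With all libraries thinned to the smallest, its naive ratio of 1.257 lay just below the 1.264 to 1.345 of the other chromosomes, so its place inside or below their range depended on the setting.

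**Figure D5:**
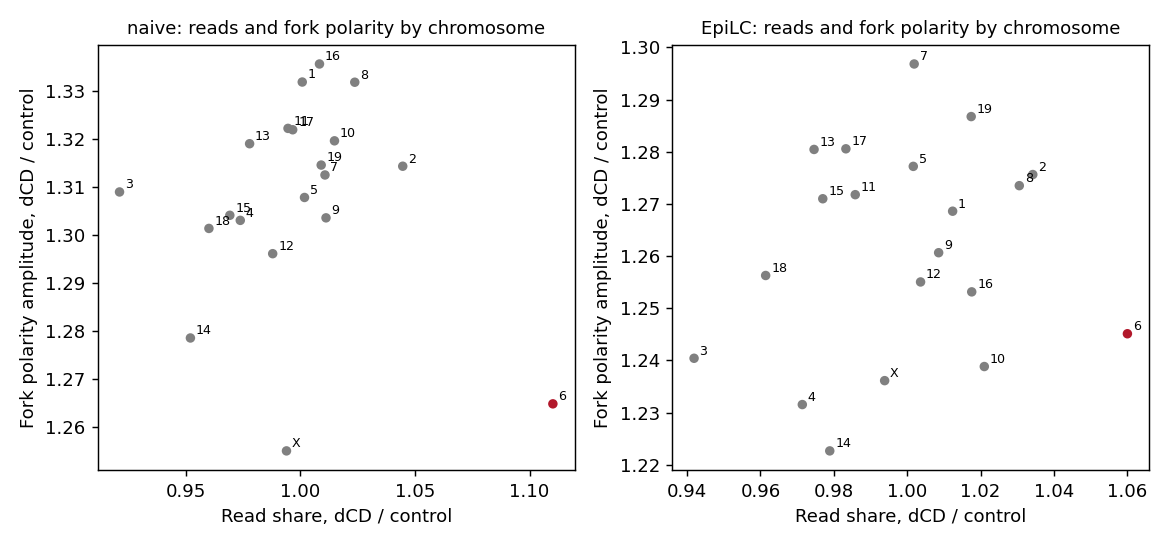
Each chromosome's read share in dCD over control (x axis) against its fork polarity amplitude in dCD over control (y axis), naive state left and EpiLC state right, chromosome 6 in red. Chromosome 6 lies at the far right in both panels, with amplitude ratios of 1.26 and 1.25 inside the range of the other chromosomes.

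The places where forks ran in either direction were alike in all lines. Over 284 bins of 500 kb, the Crick percentage of chromosome 6 in dCD had an r with the control of 0.924 in naive cells and 0.952 in EpiLCs, inside the 0.896 to 0.953 and 0.913 to 0.978 of the other chromosomes. For dKO the r was 0.924 and 0.948. The mean difference between dCD and control was 0.0240 percentage points in naive cells and 0.0551 in EpiLCs, with an SD over bins of 5.19 and 3.14 points.

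Start sites of genes are frequent replication origins, which appear as a rise of the Crick percentage from the left to the right of the site. This strand bias, taken from 25 kb on either side, averaged over 1065 protein-coding start sites of the chromosome to 6.24 points in naive control, 6.33 in dKO and 6.66 in dCD. In EpiLCs it was 4.16, 4.54 and 4.54. All 6 values lay inside the range of the other 19 chromosomes. The change from control to dCD was 0.415 points in naive cells (others -0.586 to 2.45) and 0.380 in EpiLCs (others 0.223 to 1.32).

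Around most genes the reading was higher. Of 1092 windows of 200 kb centred on protein-coding start sites of chromosome 6, 905 were above 1 in naive dCD (51.3% over the genome) and 378 had an interval above 1 (8.82%). In EpiLC dCD these numbers were 794 (38.5%) and 296 (8.22%). An interval below 1 was found for 31 windows in naive and 105 in EpiLC dCD, and the share of such windows over the genome was not computed. The medians were 1.106 and 1.047, against 0.999 and 0.978 on other chromosomes. Neighbouring windows overlap and share reads. In dKO the medians were 0.999 and 1.002. Of 78 genes on the lists described next, chosen by function and position with earlier results of these data known, 69 were above 1 in naive and 53 in EpiLC dCD.

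Long genes gave the most reads per gene. Over the bodies of 61 protein-coding genes of more than 200 kb, 56 were above 1 in naive dCD (51.8% of 990 such genes over the genome), 32 of them with an interval above 1 (11.7%). In EpiLC dCD 50 were above 1 (53.4%) and 40 had an interval above 1 (25.2%). An interval below 1 was found for 0 of the 61 in naive and 6 in EpiLC dCD, where the lowest ratio was 0.777. The medians were 1.12 and 1.09, against 0.999 and 1.003 on other chromosomes. The listed long genes were 20, of which 19 were above 1 in naive and 16 in EpiLC dCD.

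Cntnap2, which encodes a neurexin-like adhesion protein, held 689 RPM in naive control, 757 in dKO and 820 in dCD. In EpiLCs it held 734, 715 and 875. Its dCD ratios were 1.19 (1.13 to 1.25) and 1.19 (1.16 to 1.23), so the EpiLC gain was not smaller there. Cacna1c, a subunit of an L-type calcium channel, held 277, 285 and 353 RPM in naive cells and 270, 297 and 306 in EpiLCs. Its ratios were 1.27 (1.18 to 1.38) and 1.13 (1.08 to 1.19), and dKO in EpiLCs was at 1.102, close to dCD.

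Among glutamate receptor genes, Grm7 was at 1.12 (1.03 to 1.22) in naive dCD and at 1.1998 (1.146 to 1.257) in EpiLC dCD, and Grm8 at 1.12 (1.04 to 1.21) and 1.04 (0.998 to 1.09). The contactin adhesion genes Cntn3, Cntn4 and Cntn6 were at 1.196, 1.053 and 1.045 in naive and at 1.152, 1.115 and 1.102 in EpiLC dCD. Sox5, a transcription factor of cartilage and neurons, was at 1.119 (1.047 to 1.195) and 1.176 (1.129 to 1.225), though dKO in EpiLCs was also high there, at 1.13. Dgki, a diacylglycerol kinase, was at 1.14 (1.04 to 1.25) and 1.17 (1.11 to 1.23), and Itpr1, a calcium release channel, at 1.205 (1.090 to 1.332) and 1.07 (1.01 to 1.13). Ccser1 was at 1.103 and 1.089 and Thsd7a at 1.102 and 1.117. Erc1 was at 1.14 and 1.04, Snd1 at 1.11 and 0.975, and Magi1 at 1.06 and 0.995. Ica1, measured around its start site within the low run at chr6:7000001-9000000, was at 1.17 (1.002 to 1.36) and 1.03 (0.947 to 1.13).

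Among the 20 listed long genes, 2 had an interval below 1 in EpiLC dCD, as had 6 of the 61 genes over 200 kb. The share of such genes over the genome was not computed. Pde1c, within one of the low runs, was at 0.965 (0.872 to 1.07) in naive dCD and 0.912 (0.861 to 0.966) in EpiLC dCD. Exoc4, a subunit of the exocyst that tethers secretory vesicles, was at 1.03 (0.956 to 1.12) and 0.913 (0.874 to 0.952), from 358, 350 and 327 RPM in EpiLC control, dKO and dCD. Ctnna2, the neuronal alpha-catenin whose promoter is printed above, held 402, 384 and 423 RPM in naive control, dKO and dCD and 418, 371 and 453 in EpiLCs. Its dCD ratios were 1.053 (0.983 to 1.128) and 1.08 (1.04 to 1.13), with dKO below the control at 0.956 (0.891 to 1.02) and 0.888 (0.853 to 0.924). The dCD and dKO libraries thus lay on opposite sides of the control in EpiLCs at this gene.

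The pluripotency genes of chromosome 6 lie close together, so their 200 kb windows share reads. Of the 6, 4 were above 1 in naive and 6 in EpiLC dCD, with intervals above 1 for 2 and 0 of them, where 51.3% and 38.5% of such windows over the genome were above 1 and 8.82% and 8.22% had an interval above 1. On chromosome 6 itself 905 and 794 of 1092 were above 1, beside which the counts of this list and of those below should be read. In dKO 4 of the 6 pluripotency genes were above 1 in naive cells and 6 in EpiLCs as well, with intervals above 1 for 1 and 0. Nanog, a core factor of naive pluripotency, held 124 RPM in naive control, 143 in dKO and 142 in dCD, a dCD ratio of 1.14 (1.01 to 1.29), with dKO at 1.15. In EpiLCs it held 110, 116 and 116, a ratio of 1.054 (0.978 to 1.136). At Nanog the dKO library was thus as high as dCD. Slc2a3, a glucose transporter, was at 1.27 (1.13 to 1.44) and 1.07 (0.993 to 1.15), with dKO at 1.13 in naive cells. Dppa3, a maternal factor that guards DNA methylation, was at 1.045 and 1.073, Gdf3, a TGF-beta family ligand, at 0.988 and 1.06, Phc1, a Polycomb subunit, at 1.12 and 1.01, and Apobec1, a cytidine deaminase, at 0.967 and 1.06, all with intervals that included 1.

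Of 11 genes of replication and repair, 10 were above 1 in naive dCD (51.3% over the genome) and 9 in EpiLC dCD (38.5%), with intervals above 1 for 2 (8.82%) and 1 (8.22%). Mcm2, a subunit of the replicative helicase, held 106, 114 and 128 RPM in naive control, dKO and dCD and 106, 113 and 105 in EpiLCs. Its ratio was 1.198 (1.052 to 1.366) in naive cells and 0.990 (0.916 to 1.07) in EpiLCs. Fancd2, a Fanconi anaemia protein of crosslink repair, had the highest mean of both states, at 1.190 (1.051 to 1.347) and 1.07 (0.992 to 1.15), with dKO at 1.03 and 1.02. Rad52, a recombination mediator, had the lowest mean, at 0.957 (0.833 to 1.098) and 1.04 (0.967 to 1.13).

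Of 12 chromatin regulators 10 were above 1 in naive (51.3% over the genome) and in EpiLC dCD (38.5%), 3 with an interval above 1 in each (8.82% and 8.22%). Phf14, a PHD finger protein, had the highest mean, at 1.22 (0.986 to 1.51) and 1.127 (1.004 to 1.267), with naive dKO at 1.202. Chd4, the ATPase of the NuRD remodelling complex, was at 1.185 (1.054 to 1.333) and 1.101 (1.025 to 1.182), with dKO at 0.935 and 1.01. Hdac11, a deacetylase, had the lowest mean, at 0.980 and 1.01. Of 17 genes of growth and the cell cycle, 14 were above 1 in naive (51.3% over the genome) and 11 in EpiLC dCD (38.5%). Cdkn1b, the cell cycle inhibitor p27, had the lowest mean, at 0.865 (0.750 to 0.998) and 0.940 (0.868 to 1.02).

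The HoxA cluster showed the largest contrast between the naive and EpiLC states among the lists. All 12 of its genes were above 1 in naive dCD (51.3% over the genome), with a median of 1.13, and 1 of 12 in EpiLC dCD (38.5%), with a median of 0.961. Evx1 at its end was highest, at 1.18 (1.03 to 1.35) and 1.022 (0.9499 to 1.099), and Hoxa2 lowest, at 1.02 (0.890 to 1.16) and 0.948 (0.882 to 1.02). Their windows overlap almost fully, so they are close to 1 measurement. In dKO 2 of the 12 were above 1 in naive cells, with a median of 0.979. In EpiLC dKO 0 were above 1 and 5 had an interval below 1, with a median of 0.932, lower than in dCD. Over the cluster itself (chr6:52155590-52318378) there were 400, 346 and 397 reads in naive control, dKO and dCD and 1172, 1276 and 1396 in EpiLCs. The dCD ratio was 1.197 (1.039 to 1.379) in naive cells and 0.998 (0.922 to 1.08) in EpiLCs, with dKO at 0.969 and 0.958.

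Some clusters of immune and sensory receptor genes, which embryonic stem cells do not use, read higher as well. The immunoglobulin kappa cluster (chr6:67555497-70726966, 166 annotated genes and segments) had dCD ratios of 1.144 (1.090 to 1.202) in naive cells and 1.074 (1.045 to 1.103) in EpiLCs, with dKO at 0.988 and 0.971. The T cell receptor beta cluster (chr6:40891229-41558452) was at 1.07 (0.969 to 1.17) and 1.16 (1.09 to 1.22), with dKO at 0.966 and 0.924. The natural killer receptor cluster (chr6:128609227-131247362), whose products recognise other cells, was at 1.02 (0.964 to 1.07) and 0.994 (0.965 to 1.03). Of 3 groups of bitter taste receptor genes the largest, with 29 genes, was at 1.15 (1.07 to 1.24) and 1.091 (1.046 to 1.139), and the others at 1.24 and 1.07 in naive and 1.03 and 1.15 in EpiLC dCD. The 5 groups of vomeronasal receptor genes ranged from 0.999 to 1.104 in naive dCD and from 0.921 to 1.16 in EpiLC dCD. The lowest of these in EpiLCs was the group of 44 genes at chr6:56924015-58504737, which overlaps the low run described above and reaches beyond its end.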

How the data were processed

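OK-seq was measured in 6 conditions with 2 replicates each, 12 samples in all. Per the methods and the submitters' processing notes, the authors trimmed reads with Trim Galore, mapped them with bowtie2 (genome mm10) and counted each strand in 1 kb bins. The processing notes also list Picard and FastQC, and whether duplicate reads were removed is not given in the sources used here. The authors deposited 1 table per condition with strand signal in reads per bp and the replicates summed. Times 1000, all deposited values were whole numbers (tolerance and largest deviation 0), and these were used as recovered counts of reads. Positions were read as bin ends, because 0 reads then fell in 74135 bins made of N only, against 3045 reads as bin starts.

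Autosomes and chromosome X were used, and 83 bins with over 10 times the median count were left out. A share ratio is the share of reads in a mutant library over that in the control library of the same state, with an exact conditional binomial interval of 95% from counting. Ratios of 2 share ratios (EpiLC over naive, chromosome 6 over other chromosomes) have a normal interval on the log scale. Windows of 1 Mb needed 500 control reads, bins of 50 kb 20 reads, bins of 500 kb 200 reads in each library, start sites 10 reads on either side and gene windows 50 reads in the naive control. Genes are those of GENCODE M21, and those over 200 kb were measured over their body, others over 200 kb around the start site. Named are all pluripotency genes, gene clusters and long genes on the lists and, for other lists, the members with the highest and lowest mean. Some genes that this rule would name are not reported here. Mcm2 and Chd4 were named, and the values of Met and Wnt2 given, after their values were seen. The chromosome, lists and comparisons were chosen with earlier results of these data known. With replicates summed, no p-value is given. Procedures were tested on simulated data. Python 3.11.15, numpy 2.4.6, pandas 2.3.3 and scipy 1.17.1 were used. Alternatives covered bins left out, denominators, G+C trend, thresholds, bin size, thinning and T minus A content.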

Additional observations from a re-analysis of the deposited data

How the results depend on the processing

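No paired analysis was possible because the replicates are summed in the 1 processed table per condition used here, and reads of single replicates were not analysed here. For the same reason no replicate could be left out. Of 62 values under alternative settings, 50 moved by less than their counting interval (for amplitudes, the SD over other chromosomes; for counts of windows, 1.5 times). The dCD ratios kept their direction under all of them, naive dCD between 1.110 and 1.114 and EpiLC dCD between 1.058 and 1.063, and the EpiLC over naive ratio stayed between 0.9499 and 0.956.

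The EpiLC dKO ratio moved to 0.994 as a share of the chromosomes other than 2, 3, 4, 6 and 18. It moved to 0.993 when divided by the median chromosome and to 0.991 with libraries thinned to the smallest. Naive dKO went just below 1 under the first of these (0.9995) and when divided by the median chromosome (0.9992). The number of naive dCD windows past the line was 11 above a ratio of 1.2 and 20 with 5 Mb windows (of 30). In EpiLC dCD it was 82 with the line at a gain of 5%, 4 above 1.2 and 7 with 5 Mb windows. The naive amplitude ratio was 1.30 with 100 kb bins, 1.42 with 500 kb bins and 1.36 once the part fitted by T minus A content was subtracted (other chromosomes 1.38 to 1.46, so that chromosome 6 was the lowest), and the EpiLC ratio was 1.33 with 500 kb bins; the cause was not tested. Depth limits single windows, with wider intervals in the naive libraries. In both states the interval of a 200 kb window, as at Nanog (1.01 to 1.29 and 0.978 to 1.136), spans more than the gain of the chromosome.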
